A study of Caenorhabditis elegans with 2 samples.

Results

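The nuclear hormone receptor genes of Caenorhabditis elegans were examined as places where an eGFP-tagged member of the same family, NHR-12, was found on chromatin. The 268 genes are those of the 19973 nuclear protein-coding genes in the Ensembl annotation of WBcel235 (the same assembly as ce11) whose symbol begins with nhr-. The gene nhr-12 itself was left out because its product is the tagged protein. Membership used names only and no measured value.

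Chromatin immunoprecipitation followed by sequencing (ChIP-seq) was done on whole mixed-stage embryos of pooled males and females, age unknown. There was 1 group with 2 biological replicates, with no other genotype, stage or treatment to set beside it. Both replicates came from strain OP318, which carries the transgene insertion wgIs318 targeting nhr-12 and the mutation unc-119(ed3) on chromosome III. The promoter and expression pattern of the transgene, and what was separate about the replicates, are not given in the sources used here, and a control listed in the labels was not analysed here. A signal summed over a whole embryo cannot tell binding in few cells apart from weak binding in many.

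Nuclear hormone receptors are transcription factors with a zinc-finger DNA-binding domain and, in most members, a ligand-binding domain through which small lipophilic molecules and cofactors change their activity. Nematodes carry a greatly enlarged set, most of it descended from an ancestor related to HNF4 and much of it on chromosome V, beside a small group of receptors with counterparts in insects and vertebrates. Some receptors act on the genes of other receptors. In C. elegans, members are known for roles in moulting, fat storage, dauer formation and responses to toxins and pathogens, while most have no described role.

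The authors deposited 249 thresholded peaks on ce11, obtained by an irreproducible discovery rate comparison, together with longer lists of candidate regions that were not thresholded. A thresholded peak need not rank high in the list of each replicate. These longer lists held 28574 candidates from the pooled replicates and 30000 from each replicate, and all 249 peaks were also in the pooled list. Each region carries the authors' signal over a control, on a scale that is not stated, so sizes are compared only within a list and a rank (1 is the largest signal) stands beside values from different lists. In the pooled list, the median signal was 10.4 and the peaks ranged from 30.7 to 113. A gene's start window reached 1000 bp upstream and 200 bp downstream of its annotated start, and the gene took the largest signal among regions with a summit there. Many C. elegans messages are trans-spliced, so that an annotated start is often not where transcription begins.

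Thresholded peaks lay in the start window of 2 members, nhr-256 and nhr-47, and within 5 kb upstream of 2 more, nhr-20 and nhr-17. The sequences at these 4 peaks are shown first because they are the places at receptor genes with the largest pooled signals. Each is the 201 bases centred on the summit, read 5′ to 3′ on the strand of the receptor gene, from the RefSeq copy of WBcel235. Their positions are chrV:1743524-1743724 on the plus strand for nhr-256, chrV:5505108-5505308 on the plus strand for nhr-47, chrIII:4237767-4237967 on the minus strand for nhr-20 and chrX:12670500-12670700 on the minus strand for nhr-17. Capitals mark matches, on either strand, to 3 motifs: AGGTCA, a hexamer recognised by many nuclear receptors, CTGCGTCT, and GAGAGA, which reads TCTCTC on the other strand. No match to one motif overlapped a match to another.
nhr-256: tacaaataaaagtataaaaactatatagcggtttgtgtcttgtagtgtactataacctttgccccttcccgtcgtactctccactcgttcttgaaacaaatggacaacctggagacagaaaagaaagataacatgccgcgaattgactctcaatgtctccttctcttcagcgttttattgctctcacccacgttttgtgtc
nhr-47: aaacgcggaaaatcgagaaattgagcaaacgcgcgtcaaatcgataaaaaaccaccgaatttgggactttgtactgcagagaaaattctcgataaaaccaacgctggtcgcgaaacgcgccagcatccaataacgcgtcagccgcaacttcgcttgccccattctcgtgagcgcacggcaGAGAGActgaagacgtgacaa
nhr-20: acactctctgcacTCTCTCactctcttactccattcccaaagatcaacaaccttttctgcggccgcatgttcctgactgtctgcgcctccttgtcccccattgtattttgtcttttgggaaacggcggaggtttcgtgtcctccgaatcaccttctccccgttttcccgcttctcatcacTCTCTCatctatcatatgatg
nhr-17: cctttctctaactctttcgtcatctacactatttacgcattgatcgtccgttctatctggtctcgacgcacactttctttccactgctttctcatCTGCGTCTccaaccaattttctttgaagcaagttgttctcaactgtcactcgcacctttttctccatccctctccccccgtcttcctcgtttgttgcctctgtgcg

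The nhr-256 sequence held none of the 3 motifs, and AGGTCA was in none of the 4 sequences. In the nhr-47 sequence GAGAGA began 80 bases downstream of the summit. The nhr-20 sequence held TCTCTC at 2 places, starting 87 bases upstream and 80 bases downstream of the summit. In the nhr-17 sequence CTGCGTCT lay across the summit itself, from 5 bases upstream to 2 bases downstream. GC content was 40.8% for nhr-256, 49.8% for nhr-47, 49.8% for nhr-20 and 47.3% for nhr-17. A match is a description of the letters in the window and not a mapped binding site.

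The receptor gene nhr-256 (WBGene00022805, chromosome V, 1743771 to 1747981, plus strand) had the largest start-window signal of all members. Its peak, at 1743446 to 1743801 with the summit 147 bp upstream of the start and outside annotated genes, had a signal of 49.5 and rank 63 in the pooled list. The signal was 31.4 (rank 54) in replicate 1 and 18.1 (rank 161) in replicate 2. The region was thus near the top of each list, and nhr-256 was first among the members in each. The summit lay at the same base in replicate 1 and 84 bp away in replicate 2. The next coding start, that of srab-25, was 2450 bp away on the other side, and a non-coding RNA gene, ZK697.16, started 224 bp from the summit.

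For nhr-47 (WBGene00003637, chromosome V, 5505253 to 5509956, plus strand), the pooled signal was 32.02 at rank 220, just above the lowest thresholded peak. The region, 5505030 to 5505385, had its summit 45 bp upstream of the start, within an exon of the non-coding RNA gene C24G6.10. Replicate 1 gave 22.3 (rank 145) and replicate 2 gave 10.1 (rank 2037), so the region stood higher in the list of replicate 1. The start of dnj-19, a gene of the DnaJ chaperone family read in the opposite direction, lay 351 bp from the same summit. These lists cannot say to which of the facing genes the region belongs.

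At nhr-20 (WBGene00003619, chromosome III, 4230436 to 4233219, minus strand), the strong region was far from the start. A thresholded peak at 4237689 to 4238044, 4648 bp upstream and outside annotated genes, had a pooled signal of 67.6 at rank 19. Replicate 1 gave 36.04 (rank 23) and replicate 2 gave 32.3 (rank 19), with the summit at the same base in all 3 lists. No other region within 5 kb upstream of a member ranked as high. The nearest coding start was that of nhr-20, but F43C1.7 started almost as close, 4708 bp from the summit. In its own start window nhr-20 had a candidate of 10.5 (rank 13989), 389 bp upstream, with 9.01 in replicate 1 and none in replicate 2.

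The fourth gene, nhr-17 (WBGene00003616, chromosome X, 12663837 to 12667854, minus strand), had a thresholded peak 2746 bp upstream of its start, at 12670422 to 12670777 and outside annotated genes. Its pooled signal was 31.8 at rank 228. The region gave 14.3 (rank 840) in replicate 1 and 17.4 (rank 181) in replicate 2, so here the higher rank was in replicate 2. No list held a candidate in the nhr-17 start window.

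**Figure D1:**
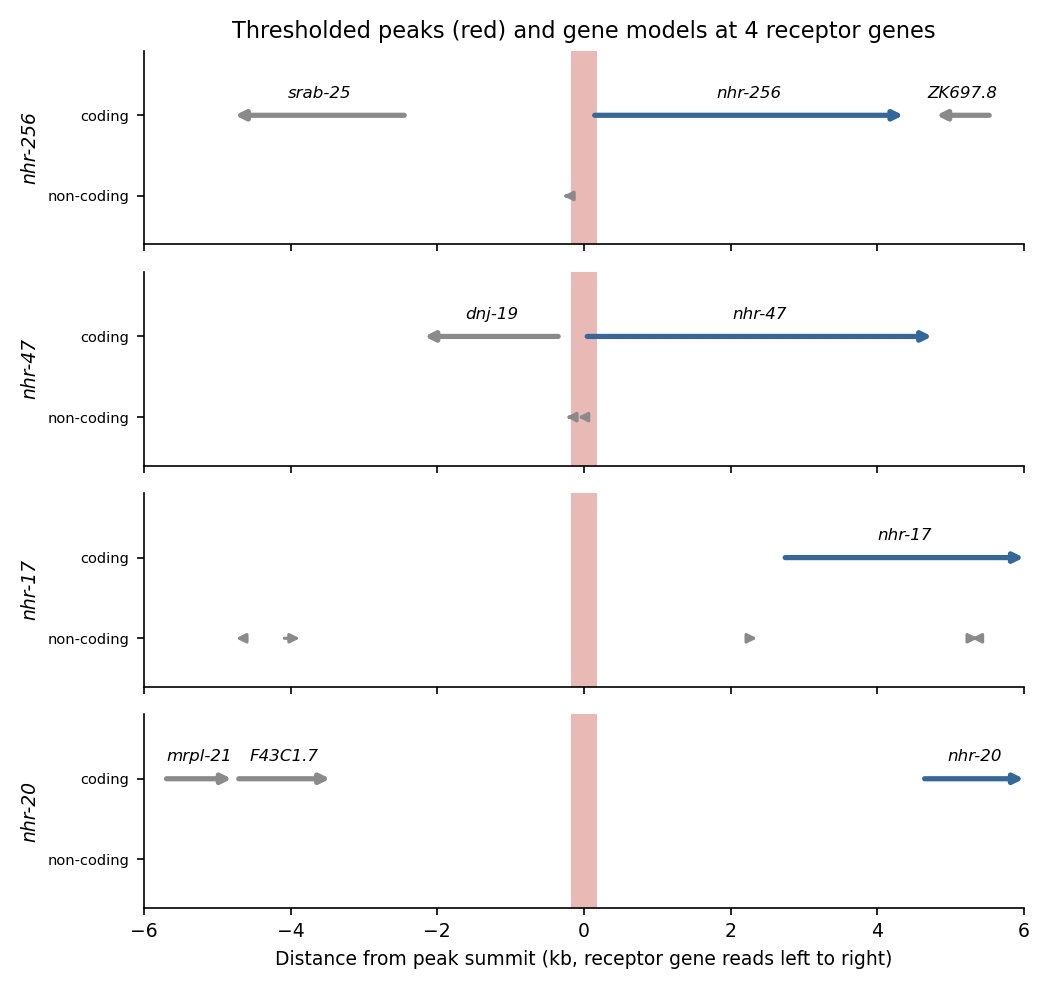
Gene models around the thresholded peaks at nhr-256, nhr-47, nhr-17 and nhr-20, drawn to scale in kb from the peak summit, with each receptor gene reading left to right. The red band is the peak, blue arrows are the receptor genes (cut at the edge of the map) and grey arrows are other genes, with non-coding genes below; the summit was 147 bp and 45 bp upstream of nhr-256 and nhr-47 but 2746 bp and 4648 bp upstream of nhr-17 and nhr-20.

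Thresholded peaks in the start window were too few at receptor genes to tell their share from that of all coding genes. The 2 of 268 members are 0.746% (exact Clopper-Pearson 95% interval 0.0905% to 2.67%), and the share over all protein-coding genes was 0.946%. Within 5 kb upstream, 4 members had a peak, which is 1.49% (0.408% to 3.78%) beside 1.94% of all coding genes. The intervals cover only the counting of genes, which are not independent of each other. No test was run, and both intervals are wide and include the share over all coding genes.

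In the pooled list 83 of the 268 members had one in the start window, which is 31.0% (25.5% to 36.9%) beside 35.7% of all coding genes. The members nhr-192 and nhr-205 lie in a long stretch around nhr-12 that holds no pooled candidate, and without them the share was 31.2% of 266. Replicate 1 gave 91 members, or 34.0%, beside 37.0% of all coding genes. Replicate 2 also gave 91 members, or 34.0%, beside 35.7%. Candidates in both replicates were found at 48 members, which is 17.9% (13.5% to 23%) beside 17.6%. A candidate is only a ranked region and most were far below the peaks, so these counts give places on the lists and not binding.

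The signal at the members with a pooled candidate followed that of coding genes in general. Over the 83 members it ran from 7.80 to 49.5 with a median of 11.2, and the middle of the range, between the quartiles, was 9.13 to 14.1. Over the 7138 coding genes with a candidate the median was 11.1, the quartiles were 9.21 and 14.1, and the largest value was 113. The top decile of all pooled candidates by signal held 10 of the 83 members, or 12%, beside 16.1% of the coding genes with a candidate. The members' counts thus show few strong regions beside many weak ones.

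Below the pair with peaks, the largest start-window signals were close together. At nhr-237 the pooled signal was 22.96 (rank 614), with 14.5 in replicate 1 and 7.32 in replicate 2, and the summit lay 721 bp upstream. The same region is 3101 bp upstream of a second receptor gene, nhr-110. The signal at nhr-180 was 21.4 (rank 821), with 7.89 in replicate 1 and 11.8 in replicate 2, at 311 bp upstream. These neighbours in the order differ in which replicate gave the better rank, replicate 1 for nhr-237 (793 against 7395) and replicate 2 for nhr-180 (1005 against 10045).

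At nhr-86, a receptor of intestinal immune defence that responds to a bacterial pathogen's metabolite, the pooled signal was 20.5 (rank 989), 81 bp upstream. Its replicates stood far apart, with 15.6 (rank 554) in replicate 1 and 5.03 (rank 19621) in replicate 2. The signal at nhr-177 was 20.2 (rank 1064), 160 bp upstream, with 9.83 in replicate 1 and 9.33 in replicate 2. On chromosome X, nhr-1 had 19.8 (rank 1153), 609 bp upstream, with 9.998 in replicate 1 and 12.3 in replicate 2. Both nhr-177 and nhr-1 were in the upper part of each replicate's list.

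The last of the 10 largest signals differed in where they lay. At nhr-55 the pooled signal was 18.6, with 9.56 and 5.77 in replicates 1 and 2, and the summit was 131 bp downstream of the start, in a coding exon. At nhr-209 it was 18.5, and the summit lay 174 bp downstream in the UTR, with 7.39 in replicate 1. In replicate 2 the overlapping region had 7.47 but its summit fell outside the start window. At nhr-135 the signal was 16.4, with the summit 1 bp from the start, and replicate 1 gave 11.4. The replicate 2 region that overlaps it had 6.28 (rank 11796), and the largest in the window was another, farther upstream, of 6.59. None of these regions was in the thresholded list, and the 10 genes include 9 on chromosome V.

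**Figure D2:**
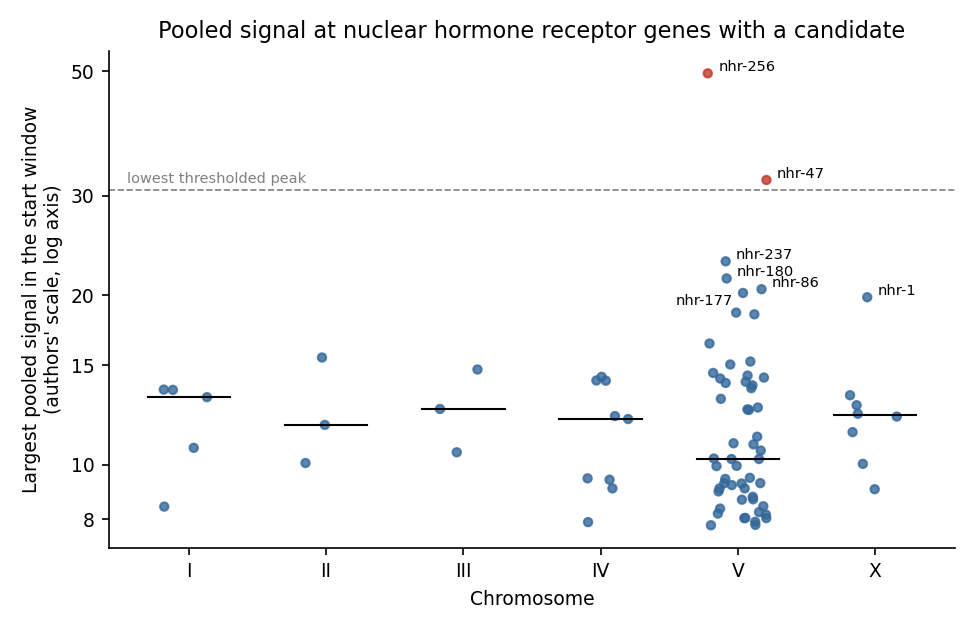
Largest pooled signal in the start window (authors' scale, log axis) of the 83 members with a candidate, 1 point per gene, by chromosome, with the median of each chromosome as a black line. Only nhr-256 and nhr-47 (red, 49.5 and 32.02) lie above the dashed line at the lowest thresholded peak (30.7), and 55 of the points are on chromosome V.

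The replicates shared part of their receptor genes, as they did over coding genes in general. Of the members, 48 had a start-window candidate in both replicates, 43 in replicate 1 only, 43 in replicate 2 only and 134 in neither. The shared genes are 52.7% of the 91 members of each replicate, and over all coding genes they are 47.4% of the 7398 in replicate 1 and 49.2% of the 7135 in replicate 2. Of the 83 pooled candidates, 35 overlapped a candidate of both replicates, and 8 overlapped none. Another 10 members had a candidate in both replicates but none in the pooled list. Among them was nhr-176, known for the metabolism of a drug used against worms. It had 10.8 in replicate 1, 995 bp upstream, and 4.45 in replicate 2, at a different place 526 bp upstream.

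Across the 48 members with both values, the signals of the replicates had a Spearman correlation of 0.0885, and of -0.02 over the 46 without nhr-256 and nhr-47. Over the 3507 coding genes with both values it was 0.253. These are descriptions across genes, which share the libraries and their depth, and weak correlations of such low signals are not a finding. In 21 of the 48 members the replicates' summits lay within 200 bp of each other. Among the 1000 highest ranks of each list were 4 members in replicate 1 and 5 in replicate 2, of which 1, nhr-256, was in both. No shares over all coding genes stand beside these summit and rank counts, so they say nothing particular to receptor genes.

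The members with the largest signals show the same split. In replicate 1 the first 3 were nhr-256, nhr-47 and nhr-86. In replicate 2 they were nhr-256, nhr-218 with 13.3 (rank 540) and nhr-4 with 12.7 (rank 697). Neither nhr-218 nor nhr-4 had a start-window candidate in replicate 1, and their pooled signals were 14.4 and 14.1. Among the members, nhr-256 alone was among the first 3 of both replicates.

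**Figure D3:**
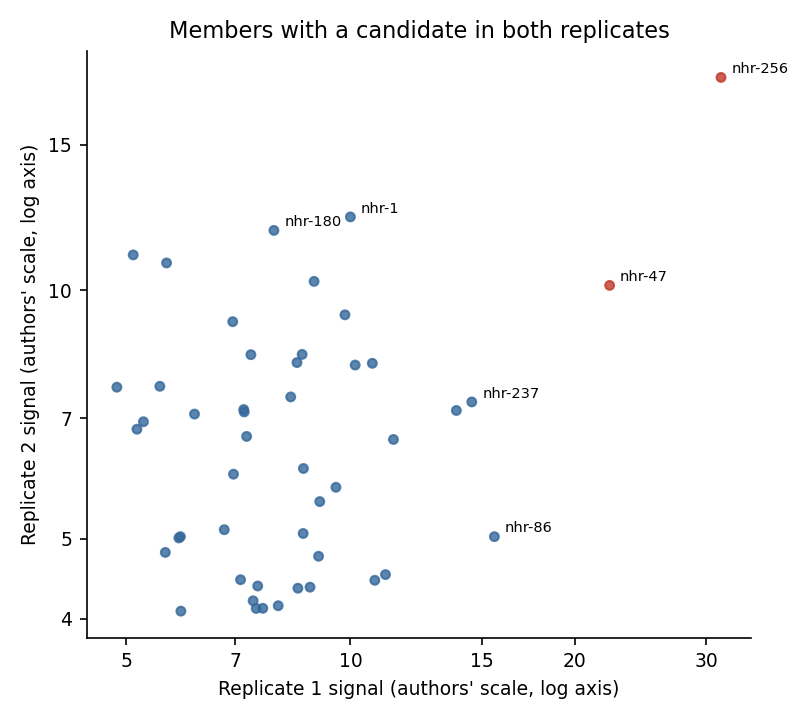
Signal in replicate 1 against signal in replicate 2 (authors' scale, log axes) for the 48 members with a start-window candidate in both lists, 1 point per gene. The members with a thresholded peak (red) are nhr-256 at 31.4 and 18.1 and nhr-47 at 22.3 and 10.1, and the other 46 form a cloud with no clear slope (Spearman correlation -0.02).

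Most members sit on chromosome V, and whether their share with a candidate was above or below that of other genes varied by chromosome. On chromosome V, 55 of 166 members had a pooled candidate, or 33.1% (26.0% to 40.8%), beside 29.7% of the other 4828 coding genes. On the remaining chromosomes together it was 28 of 102, or 27.5% (19.1% to 37.2%), beside 37.8%. This interval ends just below the share of the other genes, but it covers only the counting of genes, which are not independent. The shares were 5 of 23 on chromosome I, 3 of 15 on II, 3 of 8 on III, 9 of 33 on IV and 8 of 23 on X. The intervals of single chromosomes are wide, and each, that of V among them, includes the share of the other coding genes. On chromosome I, for example, it was 7.46% to 43.7%, where 40.4% of other coding genes had a candidate. On chromosomes I to IV and X the members' share was the lower one, and on V it was the higher, with no test of the difference.

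Within chromosome V, the first 3 Mb hold 56 members, among them nhr-256, and 22 of these, or 39.3%, had a candidate. Of the 605 other coding genes there, 151 had one, or 25%, with no test of the difference. Between 15 and 18 Mb, where another 37 members lie, the shares were 24.3% of members and 24.5% of other coding genes. The members' share was also the higher between 3 and 6 Mb (33.3% against 30.9%) and between 6 and 9 Mb (34.8% against 28.9%). Between 9 and 12 Mb it was 4 of 8 (50%) against 35.4%. Between 12 and 15 Mb the members' share was the lower, 2 of 10 (20%) against 32.2%, and so it was between 18 and 21 Mb, 3 of 11 (27.3%) against 30.8%. For thresholded peaks, chromosome V held 2 members (1.20%) and 25 of the other 4828 coding genes (0.518%). In the first 3 Mb nhr-256 was the only coding gene with a start-window peak, and between 3 and 6 Mb nhr-47 and 1 other gene, dnj-19, had one, which is the same peak.

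**Figure D4:**
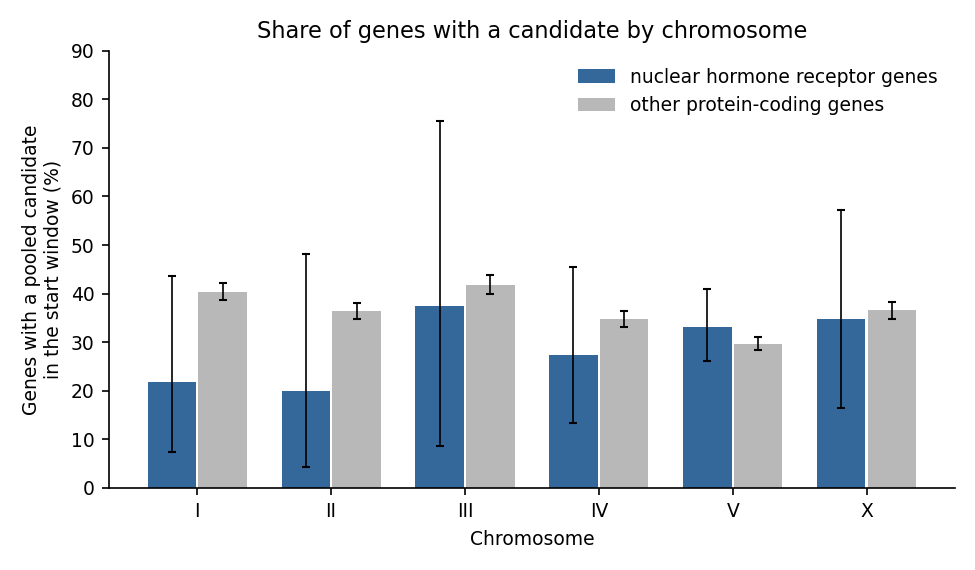
Share of genes with a pooled candidate in the start window (percent), for the receptor genes (blue) and all other protein-coding genes (grey) of each chromosome, with exact 95% intervals as error bars. The members' bar is lower on every chromosome but V, where it is 33.1% against 29.7%, and most members' intervals are wide because the counts are small.

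Receptor genes often lie side by side. Of the members, 148 start within 10 kb of another member, 119 of them on chromosome V, and 42 of the 148 (28.4%) had a candidate, with a median signal of 10.6 and no thresholded peak. Among the other 120, 47 of them on chromosome V, 41 (34.2%) had one, with a median of 11.8. Both members with a start-window peak are in this group. The share was 35.7% over all coding genes and 29.7% over the other coding genes of chromosome V. The groups thus differ in chromosome as well as spacing, and their difference was not tested. The nearest coding start to the summit was the member's own in 79 of 83, which does not settle to which gene a region belongs. In 3 it was that of another receptor gene, and the region at nhr-94 and nhr-152 (chromosome V, 7686233 to 7686588, signal 8.03) was shared by both. For nhr-68 the start of H12C20.7 was nearer, at 116 bp.

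Around the starts, candidate summits of members were densest in the same bin as those of other genes. Between 500 bp and 1 bp upstream there were 17.2 summits per 100 members and 19.2 per 100 other coding genes. In the next 500 bp upstream the values were 10.1 and 15.2, and in the farthest bin, ending 5 kb upstream, they were 8.96 and 14.6. In the bin that ends 2000 bp upstream the members were the higher, at 16.4 against 14.8, and in the bin beyond that the values were 14.6 and 14.5. The median summit of a member's largest candidate lay 234 bp upstream, against 328 bp for coding genes with a candidate. Of the 83, 18 lay downstream of the start, 41 (49.4%) at the start or within 500 bp upstream and 24 farther upstream. Over the 7138 coding genes with a candidate these counts were 1203, 3397 (47.6%) and 2538.

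Within 5 kb upstream, 194 members (72.4%, 66.6% to 77.7%) had a pooled candidate, beside 76.3% of all coding genes. Their median signal was 11.5, and that of all coding genes with such a candidate was 12. At this distance a region is often nearer to another gene: a different coding start was nearest for 107 of the 194, and they rest on 169 separate regions. Of the members, 71 had a candidate neither here nor in the start window.

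**Figure D5:**
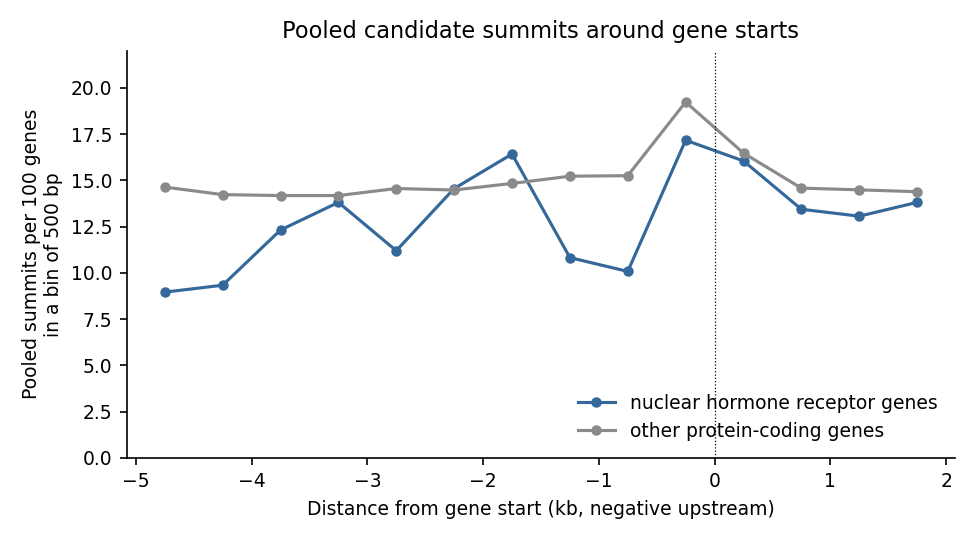
Pooled candidate summits per 100 genes in bins of 500 bp, by distance from the annotated start in kb (negative is upstream), for the 268 receptor genes (blue) and other protein-coding genes (grey). Both lines are highest in the bin just upstream of the start, at 17.2 and 19.2, and the members' line is uneven because each bin holds few summits.

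Members with a described role are a small share of the family, and none of the 30 in the 4 role lists had a thresholded peak in its start window. A pooled candidate was found at 13 of the 30 (43.3%) and at 70 of the other 238 (29.4%), and the list sizes are too small for more than these counts. Among 10 receptors with counterparts in other animal groups, 4 had a candidate. These were nhr-48 (13.3), a relative of the vertebrate vitamin D and xenobiotic receptors, nhr-91 (12.7), a relative of the germ cell nuclear factor, nhr-41 (12) and nhr-111 (8.15). The first 3 lay above the members' median of 11.2, and nhr-111 lay under their lower quartile of 9.13. The count is 40% of the list, beside 35.7% of all coding genes.

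Of 8 receptors of development and moulting, 1 had a pooled candidate (12.5%, beside 35.7% of all coding genes), a count too small to describe the group. It was at nhr-2, a gene of early embryonic development (8.42), with 8.83 in replicate 1 and 4.37 in replicate 2. In a single replicate, nhr-6 (7.54) and nhr-67 (6.53) had a start-window candidate in replicate 2 and nhr-40 (4.95) in replicate 1. No list held a start-window candidate for nhr-23, which drives the moulting cycle, for nhr-25, needed in the epidermis, or for nhr-60 or nhr-85. Farther upstream, nhr-85 had a pooled candidate of 17.6 (rank 1932) at 3132 bp, with 12.2 in replicate 1 and 5.82 in replicate 2. At nhr-2 there was one of 16.8 (rank 2432) at 1594 bp. The largest region within 5 kb upstream of nhr-2 lay elsewhere in each replicate, at 865 bp in replicate 1 and 4144 bp in replicate 2.

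Of 11 receptors of fat and energy metabolism, 7 had a pooled candidate (63.6%, beside 35.7% of all coding genes), in a list chosen with earlier results known and too short to read more from. The largest was at nhr-80 (14.7), which controls fatty acid desaturases, with 8.48 in replicate 1 and 8.17 in replicate 2. It was 13.6 at nhr-69, with 8.64 in replicate 1, 506 bp upstream, and 5.07 in replicate 2, at a different place 33 bp upstream. The rest were nhr-64 (10.7), nhr-114 (10.6), which guards the germ line on poor diets, nhr-68 (9.43) of the propionate breakdown pathway, nhr-66 (9.07) and nhr-13 (7.91), both partners of NHR-49. The gene nhr-49 itself, a regulator of fat breakdown, had a candidate only in replicate 2 (8.72). All 7 signals were far under the lowest thresholded peak.

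Among 7 receptors of stress, xenobiotics and immunity, the single pooled candidate in a start window (14.3% of the list, beside 35.7%) was that of nhr-86 described above. In its start window the hypoxia-induced gene nhr-57 had a candidate only in replicate 2 (5.08), and so did nhr-8 (4.86), a receptor of toxin resistance and cholesterol balance. Farther upstream, nhr-57 had a pooled candidate of 13.1 at 1097 bp and nhr-8 one of 12.9 at 3604 bp.

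Other genes of nuclear receptor signalling were taken from 3 lists, of which 17 of 18 symbols matched the annotation. A pooled candidate was found at 9 of the 17 (52.9%), beside 35.7% of all coding genes, in lists too short to read more from. A start-window thresholded peak was found at 1, beside 0.946% of all coding genes. That gene is cbp-1, the CBP and p300 acetyltransferase that serves as a coactivator of many transcription factors. Its peak (chromosome III, 9765441 to 9765796, 890 bp upstream) had a pooled signal of 48.6 (rank 70), with 22 (rank 153) in replicate 1 and 28.7 (rank 31) in replicate 2. It stood almost as high as that of nhr-256, and high in both replicates.

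Of the remaining cofactors, din-1, a corepressor of the steroid receptor DAF-12, had a candidate of 21.7 (rank 778) and mdt-15, a Mediator subunit that works with NHR-49, one of 10.7. None was found in the start windows of gei-8 or sop-3. With cbp-1, 3 of the 5 cofactors had one (60%, beside 35.7% of all coding genes). Of 5 receptors without an nhr symbol, 1 had one in the start window (20%, beside 35.7% of all coding genes). It was unc-55 (12.2), which sets motor neuron identity, with 6.57 in replicate 2 and none in replicate 1. The genes daf-12, fax-1, odr-7 and sex-1 had no pooled candidate in the start window. Just outside the window, 1045 bp upstream, sex-1 had a pooled region of 21.2 (rank 864), with 18.9 (rank 249) in replicate 1. In replicate 2 the largest region within 5 kb upstream was at another place, 4836 bp upstream, with 10.3 (rank 1885). Of 7 matched genes of steroid ligand synthesis and transport, 5 had a start-window candidate (71.4%, beside 35.7% of all coding genes). They were the sterol transporter ncr-2 (14.7), the sterol methyltransferase strm-1 (14.5), hsd-1 (9.19), ncr-1 (8.84) and dhs-16 (7.82). Only 2 of the 7, ncr-2 and strm-1, had a start-window candidate in both replicates, and the rest of those named had none in replicate 2. The DAF-12 hormone enzymes daf-9 and daf-36 had no pooled candidate in the start window. Farther upstream, daf-9 had one of 15.1 at 1802 bp and daf-36 one of 11.2 at 1586 bp.

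The 3 motifs marked in the sequences above were also searched around the summit of each member's largest start-window candidate. Both strands and the same 201 bases were used. AGGTCA was at 4 of the 82 separate member regions (4.88%), beside 5.86% of all 7156 candidates in start windows of coding genes, largest or not. CTGCGTCT was at 8 (9.76%), beside 3.51%, and GAGAGA at 24 (29.3%), beside 16.5%. Counting only the largest candidate of every coding gene, as was done for the members, the shares were 6.03%, 3.51% and 16.7% of 6215. Among the 249 thresholded peaks they were 5.22%, 12.9% and 41%. Median GC content was 37.8% at the member regions, 37.3% in the start windows of coding genes and 46.8% at the peaks.

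The members with CTGCGTCT had signals from 14.5 at nhr-136 and 12.5 at nhr-90 down to 7.81 at nhr-54. Of the 10 largest signals, nhr-47, nhr-237 and nhr-1 held GAGAGA and none held AGGTCA or CTGCGTCT. These motifs were chosen with earlier results of the same peaks known, and their shares are given with no test.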

How the data were processed

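ChIP-seq region lists of 2 biological replicates were used on ce11. Per the deposited description files, the authors called candidates against a control in each replicate and in the pool of both, and obtained the thresholded peaks by an irreproducible discovery rate comparison. Aligner, peak caller and thresholds are not given in the sources used here. Each region's deposited signal and its −log10 q value are the authors' own. The −log10 q is capped (203 of 249 peaks held the highest value, 2.61), so ranks used the signal. The lists give no read counts, so library depth, and with it how precise any signal is, remains unknown.

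Gene starts came from Ensembl release 115 and sequences from RefSeq, both WBcel235, in 1-based coordinates. The signal of a gene is its largest in the window, 1000 bp upstream to 200 bp downstream, or within 5 kb upstream. Intervals are exact Clopper-Pearson, which cover counting error only. Python 3.11.15, pandas 2.3.3, numpy 2.4.6, scipy 1.17.1 and matplotlib 3.10.9 were used.

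The members, gene lists, motifs and alternatives were chosen with earlier results of these data known, so counts and medians stand beside those of all protein-coding genes and no test was made. Genes named are those with a thresholded peak in the start window or within 5 kb upstream, the 10 largest pooled signals, the first 3 of each replicate, and the members of role and pathway lists with a pooled candidate. Other names were chosen after their values were seen. The symbol daf-40 did not match the annotation. The ce10 lists were not used, and no protein sequence was used.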

Additional observations from a re-analysis of the deposited data

How the results depend on the processing

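Of 44 alternatives over all results, 32 stayed within the limits set (1.5 times for a count) and 12 moved. The count of members with a start-window peak was 2 under other windows, but 1 (nhr-256) among the upper-ranked peaks by signal, and from 1 to 2 when a single replicate's highest-ranked regions were used, since without replicate 1 nhr-47 was lost. Within 5 kb upstream the count of 4 became 2 with peaks within 2 kb and 2 among the upper-ranked peaks, and was 3 to 4 with a single replicate. Replicate 1 gave nhr-20, nhr-256 and nhr-47, and replicate 2 gave nhr-20, nhr-256, nhr-17 and nhr-50, so nhr-20 and nhr-256 were in both. Members with a pooled candidate went from 83 to 128 with 2000 bp upstream and to 47 in the upper part of the list by signal, where the median signal was 13.8. Those with a candidate in both replicates went from 48 to 28 with 500 bp upstream, 84 with 2000 bp and 22 in the upper part of each list. The changes of window and of list length follow from more or fewer regions counted. The cause of the differences between single replicates was not tested.

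No paired analysis was possible because there is 1 group. Alternatives for chromosome V, neighbouring members, pathway genes, the members near nhr-12 and single-replicate percentiles were added after seeing the data. The main limits are the unknown depth, the unstated signal scale and the 2 replicates. They leave low-ranked candidates uncertain.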

Other observations

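The gene nhr-12 (chromosome V, 10082133 to 10084049), whose product was tagged, lay in a stretch without any candidate. Between the neighbouring pooled summits, at 10043788 and 10106743, there were 62955 bp, the fifth longest of the 28568 gaps between neighbouring pooled summits, whose median was 2231 bp. In replicate 1 the gap was 59748 bp (rank 5 of 29994) and in replicate 2 it was 60951 bp (rank 6). The stretch holds 19 coding genes, among them the receptor genes nhr-192 and nhr-205, which have no candidate in the start window and stay among the 268. The position of the gap at the tagged gene was seen in the data first, and its cause was not tested.

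Of the 5 longest pooled gaps, only this one holds another receptor gene. The longest, 227191 bp on chromosome V, holds 50 coding genes and no member.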
